A study of Homo sapiens with 4 samples.

Results

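The loci described here are those of 10 genes widely used as readouts of glucocorticoid action: FKBP5, PER1, TSC22D3, KLF9, ZBTB16, SGK1, DUSP1, CEBPD, ERRFI1 and NFKBIA. Each locus was a window of the hg19 genome that held the gene body and about 50 kb on either side, between 100 and 290 kb wide and 1.66 Mb in all. A member was any called region of open chromatin that overlapped a window by at least 1 bp. The windows follow the genes' positions and not the called values, but the genes and windows were chosen with earlier results of these data known. Of the 15269 regions called over 4 libraries, 10 lay in the windows. They merged into 5 separate regions of the 9007 in all, 1 each at DUSP1, ZBTB16, ERRFI1, FKBP5 and PER1. No region was called in any library in the windows of TSC22D3, KLF9, SGK1, CEBPD and NFKBIA.

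The assay was ATAC-seq, which reads out accessible DNA through the cuts of an added transposase. The cells were Ishikawa, an established line derived from a human endometrial adenocarcinoma. All cultures had been kept in medium without phenol red and with charcoal-stripped serum, which removes steroids. They then received, for 1 hour, DMSO as vehicle, 100 nM dexamethasone, 10 nM estradiol, or 100 nM dexamethasone with 10 nM estradiol. Each treatment had 1 library. The spread between replicates is therefore unknown, no p-value is given, and every difference below describes these libraries. The labelled cell type was not checked against marker loci, because no gene annotation of the hg19 build was used.

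Dexamethasone is a synthetic ligand of the glucocorticoid receptor, a transcription factor that moves to the nucleus on binding hormone. There it binds palindromic elements made of 2 copies of AGAACA facing each other across a short spacer, often far from the genes it acts on and often at DNA that is already open. Several of its classic targets restrain signalling: FKBP5 encodes a co-chaperone that lowers the hormone affinity of the receptor, DUSP1 a phosphatase that inactivates MAP kinases, ERRFI1 an inhibitor of the EGF receptor, NFKBIA the inhibitor that holds NF-κB in the cytoplasm, and TSC22D3 the leucine zipper protein GILZ. SGK1 encodes a kinase that acts on ion transport and survival, and PER1, KLF9, ZBTB16 and CEBPD encode transcriptional regulators, PER1 being part of the circadian clock.

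The promoters of the members were searched first, since genome sequence for the called regions was not used here. RefSeq promoters on GRCh38.p14, each from 250 bases before to 50 bases after a transcription start, were matched for 8 of the 10 genes with 14 promoters; ZBTB16 and CEBPD were the others. None of the 14 held the palindrome of AGAACA, 3 free bases and TGTTCT on either strand, with up to 2 mismatches in its fixed letters, which 1.41% of all 35116 promoters did. A single arm, AGAACA or its reverse complement, was found in 2 of the 14 promoters and in 14.8% of all promoters. No member promoter held the AP-1 site TGANTCA (7.71% of all promoters) or the estrogen response element of AGGTCA, 3 free bases and TGACCT with up to 2 mismatches (1.18%). The 2 stretches with an arm are shown because they are the only matches to an arm among the 14 promoters; the capitals mark the arm, and both are read on the strand of the gene, which is the minus strand of chromosome 6. The FKBP5 stretch is chr6:35728571-35728590 and its arm begins at the start base itself; the SGK1 stretch is chr6:134177844-134177863 and its arm begins 5 bases after the start.
FKBP5: ctaccccAGAACAaactcct
SGK1: tcataacAGAACAgggatag
These matches describe letters and not binding sites. The positions are on GRCh38 and were not set beside the hg19 positions of the called regions.

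Of the 10 loci, 2 held a region with vehicle, 5 with dexamethasone, 3 with estradiol and none with the combination. The loci were nested: DUSP1 and ZBTB16 were called in the vehicle, dexamethasone and estradiol libraries, ERRFI1 with either hormone alone, and FKBP5 and PER1 with dexamethasone alone. No locus held more than 1 region in any library. The lists themselves differed in length, at 1923 regions (vehicle), 8428 (dexamethasone), 4772 (estradiol) and 146 (combination), from 10694743, 14980230, 20185339 and 8240912 tags after duplicate removal. The modelled fragment lengths were 104, 89, 84 and 51 bp in the same order. The part of depth and fragment length in the differences between lists was not tested here.

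**Figure D1:**
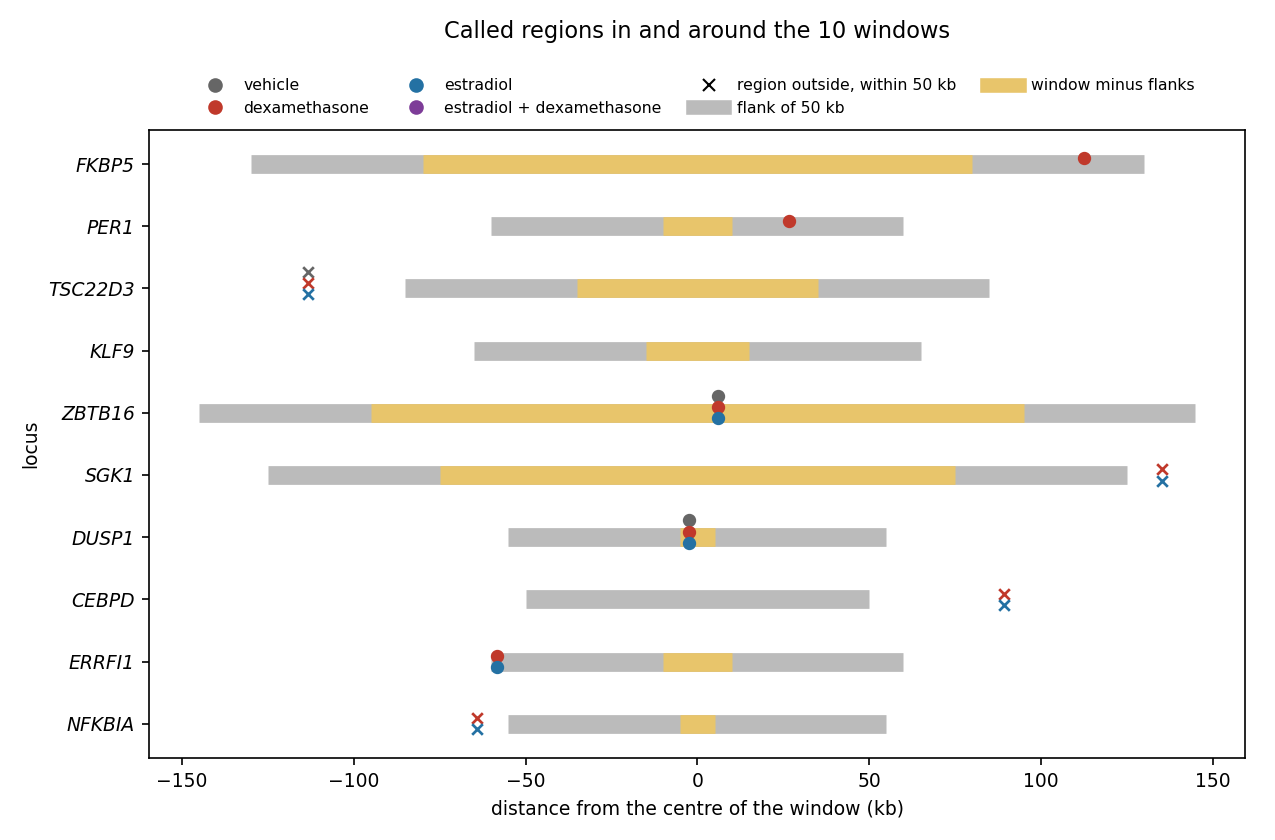
Positions of called regions along the 10 windows, as distance in kb from the centre of each window (horizontal axis), one row per gene (vertical axis). Dots are regions in the window and crosses regions outside it within 50 kb, coloured by library; grey bars are the flanks of 50 kb and yellow bars the rest of the window. Only the regions at ZBTB16 and DUSP1 sit on yellow, the other 3 regions sit in a flank, and the CEBPD window of 100 kb has no yellow part.

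Set against the whole lists, the windows held about as many regions as their length would hold at each list's mean density. With dexamethasone there were 3.01 regions per Mb of window (exact Poisson 95% interval 0.978 to 7.03, counting error only), where the whole list had 2.78 per Mb of chromosomes 1 to 22 and X. With estradiol the windows had 1.81 per Mb (0.373 to 5.28) and the list 1.57. With vehicle the values were 1.20 (0.146 to 4.35) and 0.632. At the density of the whole list, the windows would have held 4.62 dexamethasone, 2.61 estradiol and 1.05 vehicle regions, where 5, 3 and 2 were called. At least 1 region was present in 50% of the windows with dexamethasone, 30% with estradiol and 20% with vehicle, against 27.7%, 17.9% and 8.22% of the 20173 tiles of 150 kb across the genome. The windows are centred on genes, which the tiles are not, and 10 windows are few. The windows are also 100 to 290 kb wide and count any overlap, while a tile counts a region by its midpoint, so the 2 shares are not like for like. An excess over the whole list was not detectable with these numbers.

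**Figure D2:**
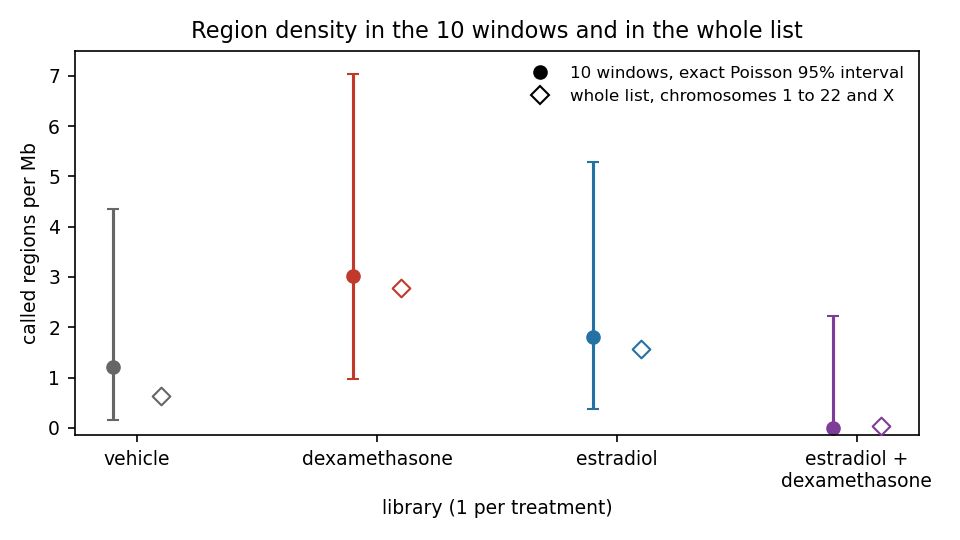
Called regions per Mb (vertical axis) for the library of each treatment (horizontal axis): filled dots are the 10 windows with exact Poisson 95% intervals, open diamonds the whole list on chromosomes 1 to 22 and X. Every diamond lies within the interval of its windows, as for dexamethasone at 2.78 against 0.978 to 7.03.

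The DUSP1 region was called with vehicle and with either hormone alone. Heights are not scaled to depth and are read within a library. DUSP1 is an early target of stress signals as well as of glucocorticoids. With vehicle it ran on chromosome 5 from 172192430 to 172192606, with 19 extended tags over the summit (Poisson 95% interval 11.4 to 29.7) and a deposited fold enrichment over the library's own local background of 10.3. With dexamethasone it ran from 172192341 to 172192621, with 23 tags and 10.2-fold. With estradiol it ran from 172192380 to 172192617, with 28 tags and 12.1-fold. The whole vehicle interval of 177 bp was contained in both hormone intervals, which were 281 and 238 bp long. The summits with vehicle and estradiol were 15 bp apart, and the dexamethasone summit lay 93 bp from the vehicle one and 108 bp from the estradiol one. By fold the region exceeded 69.9% of the vehicle list, 53.8% of the dexamethasone list and 90.9% of the estradiol list. It lay 52.3 kb from the lower and 57.4 kb from the upper end of the window, near the gene, but the windows are rounded and whether it fell in the transcribed part was not determined.

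The ZBTB16 region was also called in 3 libraries and lay inside the gene. ZBTB16 encodes PLZF, a zinc finger repressor that is induced by glucocorticoids and progestins in endometrial stroma. With vehicle it ran on chromosome 11 from 114030852 to 114031029, with 15 tags and 8.78-fold. With dexamethasone it ran from 114030789 to 114031015, with 24 tags and 10.6-fold. With estradiol it ran from 114030852 to 114030939, with 20 tags and 10.2-fold. The 88 bp of the estradiol interval were common to all 3. The dexamethasone and estradiol summits were 4 bp apart, and the vehicle summit lay 72 bp and 68 bp from them. By fold the region exceeded 30.0% of its list with vehicle, 61.3% with dexamethasone and 67.8% with estradiol. It was 150.8 kb from the lower and 139.0 kb from the upper window end, so it fell in the part of the window that holds the gene body.

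**Figure D3:**
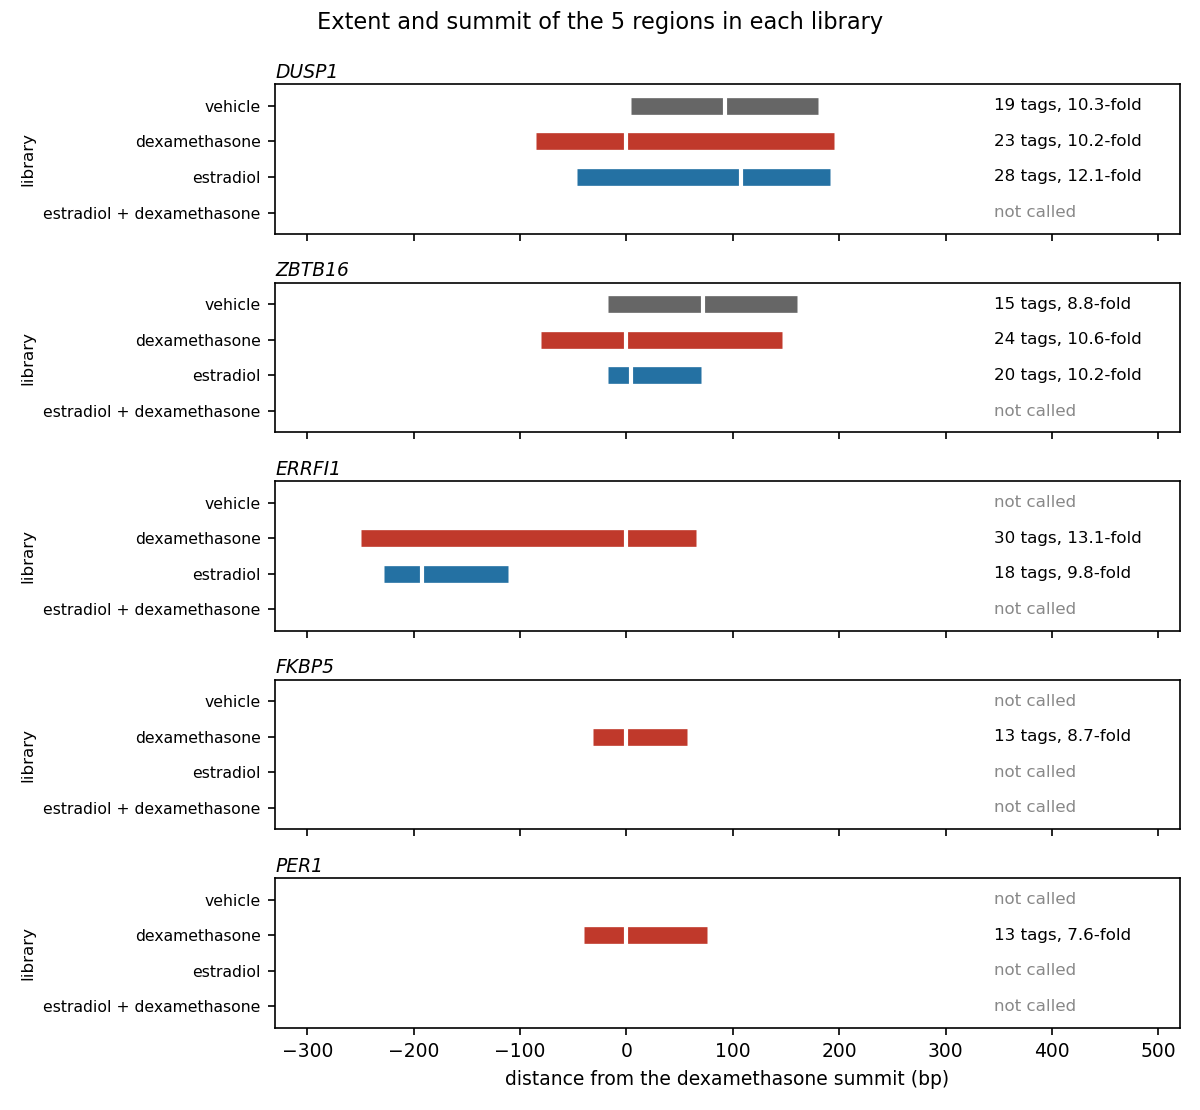
Extent (bars) and summit (white ticks) of the 5 regions in each library, as distance in bp from the dexamethasone summit (horizontal axis), with the deposited tags and fold enrichment at the right. DUSP1 and ZBTB16 have 3 overlapping bars, ERRFI1 has 2 and FKBP5 and PER1 have 1; the estradiol bar at ERRFI1 does not reach the dexamethasone summit.

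The region in the ERRFI1 window was the strongest member after dexamethasone and was not called with vehicle. It ran on chromosome 1 from 8021502 to 8021816 with dexamethasone, 315 bp with 30 tags and 13.1-fold, more than 90.3% of that list. With estradiol it ran from 8021523 to 8021640, 118 bp with 18 tags and 9.79-fold, more than 57.8% of that list. The estradiol interval lay wholly within the dexamethasone one and covered 37.5% of it. The summits were 192 bp apart, and the dexamethasone summit fell outside the estradiol interval, the widest such distance among the members. This region began 1.502 kb inside the lower edge of the window, in the flank and not in the gene. In the gene order of GRCh38, PARK7, which encodes the redox-sensitive protein DJ-1, is the next gene on that side. Whether the region belongs to ERRFI1 or to the promoter of a neighbouring gene was not determined, so each value given for ERRFI1 is that of its window and not of the gene.

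FKBP5 and PER1 each held 1 region, called with dexamethasone and in no other library. The FKBP5 region ran on chromosome 6 from 35732407 to 35732495, with 13 tags and 8.67-fold. Its 89 bp are the shortest length in the dexamethasone list, shared by other regions and equal to that library's modelled fragment length. In that list 8.58% of the regions had a weaker p-value. It lay 17.5 kb from the upper window end, on the upstream side of FKBP5, which is read on the minus strand. The PER1 region ran on chromosome 17 from 8076712 to 8076828, 117 bp with 13 tags and 7.59-fold, and 1.40% of dexamethasone regions had a weaker p-value. It lay 33.2 kb from the upper window end, in the flank on the upstream side of PER1, which is also read on the minus strand. In GRCh38 gene order VAMP2, TMEM107 and SNORD118 come next there. Whether the FKBP5 and PER1 regions belong to these genes or to a neighbouring gene was not determined. Their values are those of the windows and not of the genes. Both regions were in the weakest 10% of the dexamethasone list by p-value, of which 2.97% had an overlapping vehicle region and 18.8% an estradiol region. ERRFI1 fell at the top of the second strongest 10%, where these shares were 47.8% and 88.1%. In the strongest 10%, which it only just missed, they were 78.9% and 96.4%. DUSP1 and ZBTB16 fell in the fourth strongest 10%, with 21.4% and 56.9%, and both had counterparts in the vehicle and estradiol lists.

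**Figure D4:**
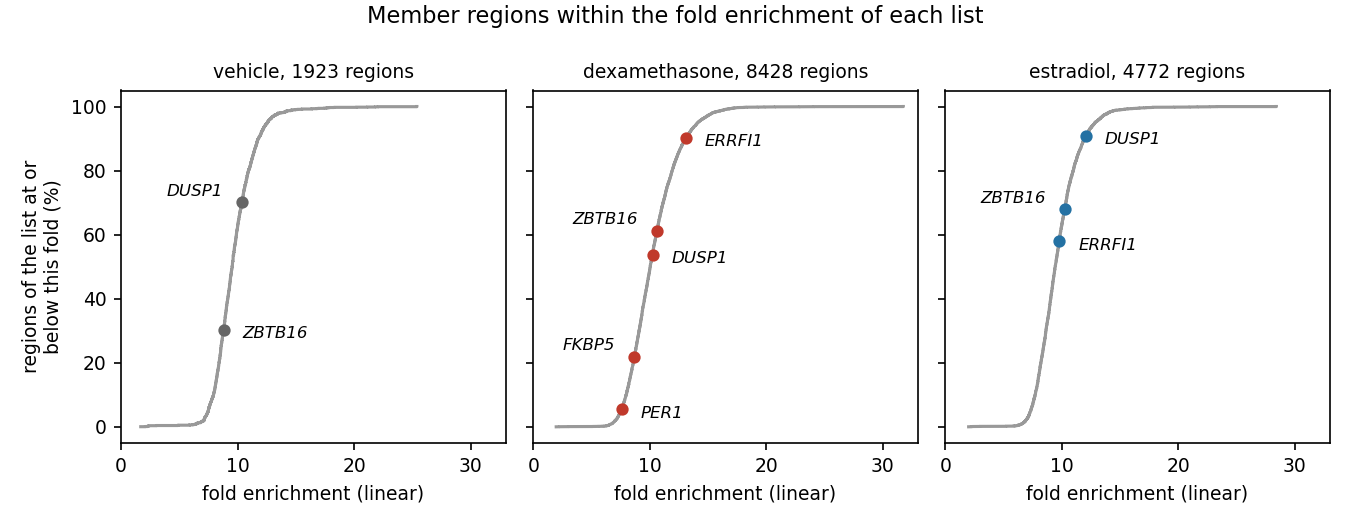
Cumulative share in percent of each list's regions (vertical axis) by deposited fold enrichment on a linear scale (horizontal axis), with the member regions as dots, for the vehicle, dexamethasone and estradiol libraries. With dexamethasone the members spread from PER1 at 7.59-fold and FKBP5 at 8.67-fold near the bottom to ERRFI1 at 13.1-fold near the top.

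Gains against vehicle were then counted. After dexamethasone, 3 of the 5 members had no overlapping vehicle region (60%, exact Clopper-Pearson 95% interval 14.7 to 94.7, counting error only), where 78.0% of the whole list had none. After estradiol it was 1 of 3 (33.3%, 0.840 to 90.6), against 64.8% of the whole list. Of the 5 dexamethasone members, 2 had no estradiol counterpart (40%, 5.27 to 85.3), against 50.3% of the list. In the reverse direction, neither vehicle member was missing after dexamethasone or after estradiol, where 3.07% and 12.8% of the vehicle list were, and none of the 3 estradiol members was missing after dexamethasone, where 11.3% of that list was. Each member share had the whole-list share inside its interval. The comparisons with vehicle share 1 vehicle library. The order of the treatments by member count was not kept at equal list length. Among the strongest 1923 regions by p-value, the dexamethasone list kept 1 member, the one at the edge of the ERRFI1 window. The vehicle and estradiol lists kept 2 each, at DUSP1 and ZBTB16. The vehicle list has that length, and at its mean density the windows would have held 1.05 regions. Counts of 1 and 2 are near that value and too small to rank the treatments.

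None of the 10 windows held a region in the combination library. The 2 vehicle, 5 dexamethasone and 3 estradiol members all lacked a counterpart there, as did 95.5%, 98.8% and 97.7% of the respective whole lists, so the members did as nearly all regions did. At the mean density of that list the windows would have held 0.0713 regions.

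Whether a missing call was detectable was looked at by carrying a deposited height to the tags and fragment length of the library without the call, with the local background carried likewise. The carried heights are calculated values, not levels measured in that library, and called heights tend to be high because they were called. Their intervals cover counting error in the library the height came from only. The same signal over background in both libraries is assumed. For FKBP5, 13 dexamethasone tags correspond to 10.8 in the vehicle library (Poisson 95% interval 5.77 to 18.5), where 10 would have passed the cutoff, and to 16.5 in the estradiol library (8.80 to 28.3), where 11 would have. For PER1 the carried heights were the same, and 11 and 13 tags would have passed. The carried heights were close to the cutoff in vehicle and above it in estradiol, and the intervals spanned it in both. With 13 tags at each region, a difference between dexamethasone and vehicle or estradiol could not be told from counting error at FKBP5 and PER1.

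For ERRFI1, the 30 dexamethasone tags correspond to 25.03 in vehicle (16.9 to 35.7), and 13 would have passed. The 18 estradiol tags correspond to 11.8 (6.998 to 18.7), and 10 would have passed. The first interval lay above the cutoff and the second spanned it. Both leave out the counting error of the vehicle library, and whether the height at ERRFI1 was lower with vehicle was not tested. In the combination library the 5 dexamethasone members would have had between 4.10 and 9.46 tags, where 7 to 9 were needed. These values rest on that library's modelled fragment length of 51 bp. Carried by tags alone, a choice made after seeing the data, they were between 7.15 and 16.5 tags, where 9 to 11 were needed. FKBP5 and PER1 fell short of the tags needed either way. DUSP1 and ZBTB16 fell short with the fragment length (7.25 and 7.57 tags, 9 needed) and passed by tags alone (12.7 and 13.2 tags, 11 needed), with intervals that spanned the cutoff both times. ERRFI1 had 9.46 tags (6.38 to 13.5) where 9 were needed, and by tags alone 16.5 (11.1 to 23.6) where 11 were needed. Whether its missing combination call was detectable thus depended on the fragment length, and at the other 4 regions the missing call was within counting error or below the cutoff both ways.

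**Figure D5:**
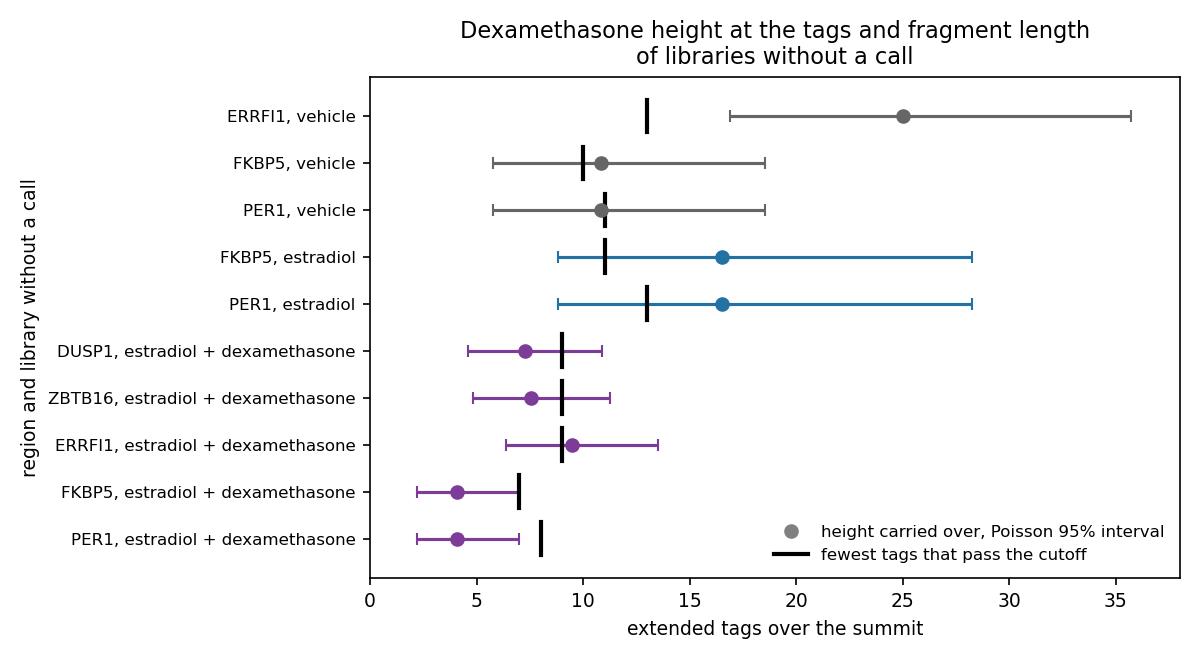
Heights of the dexamethasone members carried to each library without a call, in extended tags over the summit (horizontal axis). Bars are Poisson 95% intervals of the dexamethasone count only, and black ticks the fewest tags that pass the caller's cutoff. Rows are regions and libraries (vertical axis). ERRFI1 in vehicle, at 25.03 tags against 13 needed, is the row whose whole interval lies above its tick.

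The local background around the members lay between 1.24 and 2.76 times the genome-wide mean of its library. The background that the deposited fold implies at the FKBP5 summit was 0.614 tags with dexamethasone, 1.24 times that library's genome-wide mean of 0.494, the lowest ratio among the 10 member calls. At PER1 it was 0.845 tags, 1.71 times the mean. At DUSP1 it was 2.27 times the mean with vehicle, 2.72 times with dexamethasone and 2.23 times with estradiol. At ZBTB16 the ratios were 1.99, 2.74 and 1.67 in the same order. At ERRFI1 it was 2.76 times with dexamethasone and 1.498 times with estradiol. The caller takes the larger of the local and the genome-wide value, so no ratio can be below 1. With no control, the local value was drawn from the library's own tags over 10000 bp, which include those of the region. With dexamethasone the nearest other region of the list was 75.6 kb away at ERRFI1, 117.03 kb at DUSP1, 121.9 kb at PER1, 240.2 kb at ZBTB16 and 401.03 kb at FKBP5. Neither these distances nor the background ratios were set beside those of the whole lists, so both are a description only.

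The 5 loci without a region differed in how far away the nearest one lay. Just below the NFKBIA window, at 8.94 kb, was a region on chromosome 14 from 35810902 to 35811060 with dexamethasone (30 tags, 13.7-fold), and the estradiol list held an overlapping one (20 tags, 10.1-fold). Just above the SGK1 window, at 10.3 kb, was a region on chromosome 6 from 134700288 to 134700447 with dexamethasone (22 tags, 12.9-fold) that estradiol also had (16 tags, 9.54-fold). Each of these was stronger by fold than the FKBP5 and PER1 members, in the dexamethasone list, and neither was called with vehicle.

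Below the TSC22D3 window, at 28.3 kb, a region on the X chromosome from 106871497 to 106871658 was called with dexamethasone (17 tags, 11.6-fold), with estradiol (19 tags, 11.96-fold) and with vehicle (12 tags, 9.21-fold). Above the CEBPD window, at 39.2 kb, a region on chromosome 8 from 48739208 to 48739330 was called with dexamethasone (22 tags, 13.4-fold) and with estradiol (24 tags, 14.2-fold). KLF9, a Krüppel-like factor, was the locus farthest from a dexamethasone or estradiol region, the nearest of each being 583.3 kb above the window. Its nearest vehicle region was 1229.7 kb below, and in that list CEBPD (6589.5 kb), SGK1 (1881.5 kb) and FKBP5 (1440.3 kb) were farther from one. ERRFI1, at 1.502 kb inside, was the member closest to a window edge and NFKBIA the nearest case outside, so the count of 5 loci depends on where the edges were drawn.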

How the data were processed

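ATAC-seq libraries of Ishikawa cells, 1 for each of 4 treatments, were grouped by their treatment label. Peak calling by the authors used MACS 2.1.0.20140616, per the file headers. Libraries were called singly and had no control; the p cutoff was 1e-10, the local background spanned 10000 bp and duplicates at a position were reduced to 1 tag. Tags of 50 bp were extended to a modelled fragment length, with no transposase shift recorded. The submitters' processing notes also name Bowtie 1.1.2 and hg19, with no role given. The pileup signal that the authors deposited counts extended tags at the summit and is unscaled. Their deposited fold is a ratio, pileup plus 1 over local background plus 1. The authors' p-values, like their q-values, are on the −log10 scale. Positions count from 1. All of these are the authors' values; they rank regions within a list, except where a height was carried to another library.

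Regions overlapping by at least 1 bp were counted as shared. The local background was solved from pileup and fold; with it, the Poisson formula returned the deposited p-value within 0.05 for 100% of regions. Background density used chromosomes 1 to 22 and X up to the furthest called position. Overlap, window and cutoff functions were tested on simulated data. The genes, windows and lists were chosen with earlier results of these data known. For each locus, the strongest region of each library, the regions called in 3 libraries and the gains against vehicle are named, which here is every member. Regions just outside the windows were named after their values were seen. Pathway genes, cell type markers and motifs in the called regions were planned but not analysed here, since the reference tables are on GRCh38.p14 and the files on hg19; motifs were searched in RefSeq promoters instead, and gene order is from the same assembly. The alternatives tried were a fold of 5 or more, a −log10 q of 10 or more, regions lengthened by 500 bp at each end, an overlap of 50% of the shorter one, lists of equal length, windows wider by 50 kb or narrower by 25 kb on each side, and membership by summit. Computation used scipy 1.17.1, pandas 2.3.3 and numpy 2.4.6 under Python 3.11.15, and figures matplotlib 3.10.9.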

Additional observations from a re-analysis of the deposited data

Results flagged for a closer look

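The number of regions at the 10 loci moved one way when a hormone was given alone and the opposite way when it was added to the other. The dexamethasone library had 3 more regions than vehicle, and the combination library had a difference of -3 against estradiol. The estradiol library had 1 more region than vehicle, and the combination library a difference of -5 against dexamethasone. Neither difference was tested, since each arm had 1 library. Both negative values rest on the combination library, which had 146 regions in all, 8240912 tags and a fragment length of 51 bp. The part of these in the result was not tested. The lengths of the whole lists moved the same ways, so the reversal was not particular to these loci. Lists of 8428 (dexamethasone) and 4772 regions (estradiol) exceeded the 1923 of vehicle, and the list of 146 was the shortest. At the mean density of that shortest list the windows would have held 0.0713 regions, which left little room for a count above 0.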

How the results depend on the processing

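Over 13 results and 8 alternatives, 73 of 88 values stayed within 1.5 times the count, or within the interval of the density, and 15 moved. This tally does not measure stability well, because the densities are the same counts divided by window length and were judged by a wider rule. The combination library had 0 regions under each alternative run, and these values count as unmoved. The dexamethasone count itself moved with lists of equal length, with wider windows and with narrower windows. A fold of at least 5, the 2 other overlap rules and membership by summit moved none of the values computed for them, and could not have. The lowest member fold was 7.59, and members shared between lists overlapped by at least 92.1% of the shorter region. No member without a counterpart in the vehicle or estradiol list had a region of that list within 74.1 kb. Every member lay at least 1.502 kb inside its window. A −log10 q of at least 10 removed PER1, which left 1 dexamethasone member without an estradiol counterpart. With lists of equal length the dexamethasone list kept 1 member (0.602 per Mb). It had no vehicle and no estradiol counterpart in the shortened lists, so those counts were 1 and 1. There, 0 estradiol members lacked a vehicle counterpart, and 2 vehicle members lacked a dexamethasone one. The shares of the whole shortened lists without a counterpart were not computed, so these counts have no background beside them. Windows wider by 50 kb held 9 dexamethasone and 7 estradiol regions, or 3.38 and 2.63 per Mb, where the whole lists had 2.78 and 1.57. Of these regions, 6 and 4 had no vehicle counterpart, where 78.0% and 64.8% of the whole lists had none. A dexamethasone region was then present at 9 of the 10 loci, all but KLF9. The share of windows this wide across the genome that hold a region was not computed. Windows narrower by 25 kb lost ERRFI1 and FKBP5 and held 3 dexamethasone regions, 1 of them without a vehicle and 1 without an estradiol counterpart, while 0 estradiol members lacked a vehicle counterpart. Dexamethasone heights carried by tags alone, added after seeing the data, moved beyond the counting interval for the 5 members in the combination library and stayed within it for those in vehicle and estradiol. With 5 members or fewer in a list, 1 region changes a count by a large share. No paired analysis was possible because each treatment had 1 library.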
